A study of Chlorocebus sabaeus with 18 samples.

Results

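Cells that carried an expanded CGG repeat together with raised TRA2A (group CGG_TRA) were compared with cells that carried the repeat alone (group CGG). The comparison covers 6 of the 18 samples of the series, 3 in each group, and 6311 splicing events in 3403 genes. All samples were COS-7 cells, an established fibroblast-like kidney line of the African green monkey. CGG_TRA cells were transfected with 60 CGG repeats in the leader of FMR1 and also overexpressed TRA2A, and CGG cells received the repeat without TRA2A. Both comparisons set beside this one use untreated controls (CTL, 3 samples), against cells that overexpressed TRA2A without a repeat (GFP_TRA, 3 samples) and against CGG. Bin counts are also given for cells with TRA2A knocked down, without the repeat (siTRA, 3 samples) and with it (CGG_siTRA, 3 samples). The labels name no empty-vector group and do not say whether the TRA2A construct carried a tag, although the group name holds GFP. In both comparisons with CTL, transfection can therefore not be told apart from TRA2A or the repeat. Titles of some CGG_siTRA samples name different rounds, without saying what a round was. For the other groups nothing says that the 3 samples came from separate cultures. The p-values therefore reflect the spread among the samples of each group alone, which may be technical.

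TRA2A is a serine- and arginine-rich RNA-binding protein of the transformer-2 family, which binds purine-rich exon sequence and promotes or blocks the use of the exon. Expanded CGG repeats in the FMR1 leader are transcribed into structured RNA that forms nuclear inclusions and sequesters proteins in the tremor and ataxia syndrome of premutation carriers. Whether adding TRA2A to repeat-bearing cells changes which exons they use is the question that this comparison addresses.

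The readout is percent spliced in, the share of a gene's transcripts that follow the longer or including path at an event, and its change between groups (Delta PSI, a fraction). An event can be a cassette exon, a retained intron, an alternative 3' or 5' splice site, an alternative first or last exon, a pair of mutually exclusive exons, or a complex mix of paths. CGG_TRA is known only through the authors' deposited table of p, z score and Delta PSI for each event, which gives no value per sample and no error of Delta PSI. An event was called when the deposited p, adjusted by the Benjamini-Hochberg method over all 6311 events, was under 0.05. The direction of Delta PSI is not stated in the table and was taken as first group in the name less second group. In GFP_TRA vs CTL, where counts exist, the inner exon bins of called events with a change of 0.05 or more moved with that sign for 19 of 19 cassette exons, 5 of 5 alternative 3' sites and 1 of 1 alternative 5' site. In CGG vs CTL the same held for 22 of 22, 3 of 3 and 2 of 2. Over all events of these types with a change other than 0, called or not, the share with that sign was 79.7%, 74.2% and 75.3% in GFP_TRA vs CTL and 1061 of 1378, 414 of 546 and 398 of 554 events had it in CGG vs CTL. No called retained intron had a change of that size in either comparison, and over all retained introns the share was 82.6% and 87.0%. For CGG_TRA this could not be checked, and for first exons, last exons and complex events the table does not name the path that the sign refers to.

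Counts per exon bin were used for 15 libraries of the other 5 groups, with totals over bins from 121142115 to 203957869. The files give human Ensembl identifiers without names, so genes are given by their position on GRCh38. Gene ENSG00000164548.10 on chromosome 7, 23504780 to 23532041, stands for TRA2A here, since no other gene was both 2-fold or more above CTL in GFP_TRA and 2-fold or more down in each knockdown comparison, a choice made on its behaviour. Its normalised counts were 17143, 17234 and 16913 in the CTL libraries, 17032, 15675 and 16050 in CGG, and 204942, 187106 and 221793 in GFP_TRA. It was thus 12.0-fold higher in GFP_TRA than in CTL, and no library of one group reached those of the other. Its level in CGG_TRA is not known here, and it has 0 events in the splicing tables.

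Adding TRA2A to repeat-bearing cells was followed by few called splicing changes. In the authors' deposited table for CGG_TRA vs CGG, 26 of 6311 events (0.412%) in 24 genes passed the threshold. Of these, 16 (0.254% of all events) had a Delta PSI above 0, 8 (0.127%) had one below 0, and 2 were listed at 0. The authors' deposited tables gave 77 calls (1.22%) for GFP_TRA vs CTL and 84 (1.33%) for CGG vs CTL by the same rule. The differences between these counts were not tested, and all 3 tables list the same events. Only CGG_TRA vs CGG sets treated cells against treated cells.

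The called changes were mostly small. In the authors' deposited table the median absolute Delta PSI of the 26 called events was 0.0349, against 0.0706 for the 77 called in GFP_TRA vs CTL and 0.0707 for the 84 called in CGG vs CTL. Changes of 0.1 or more were reached by 4 of the 26 called events, 29 of the 77 and 33 of the 84 in the authors' deposited tables. Among the 26, 9 changed by less than 0.02 and 19 by less than 0.05. Over every event with a Delta PSI other than 0, the median absolute change was 0.0119 in the authors' deposited table for CGG_TRA vs CGG and 0.0128 in that for GFP_TRA vs CTL. Among all events, called or not, 62 had an absolute Delta PSI of 0.1 or more in CGG_TRA vs CGG and 142 in GFP_TRA vs CTL in the authors' deposited tables.

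Called events lay in deeply counted genes. The genes of the 26 called events had a median normalised count of 53846 in CGG, which is at the 86.4 percentile of all event genes, where the median was 14626. This sum over a gene's bins measures the depth behind an event and not a level per length. The 62 events with an absolute Delta PSI of 0.1 or more in the authors' deposited table lay in genes with a median of 8446, at the 31.0 percentile. The medians were 18971 for the genes of events called in GFP_TRA vs CTL and 17859 for those of CGG vs CTL. The part of depth in which events were called was not tested.

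**Figure D1:**
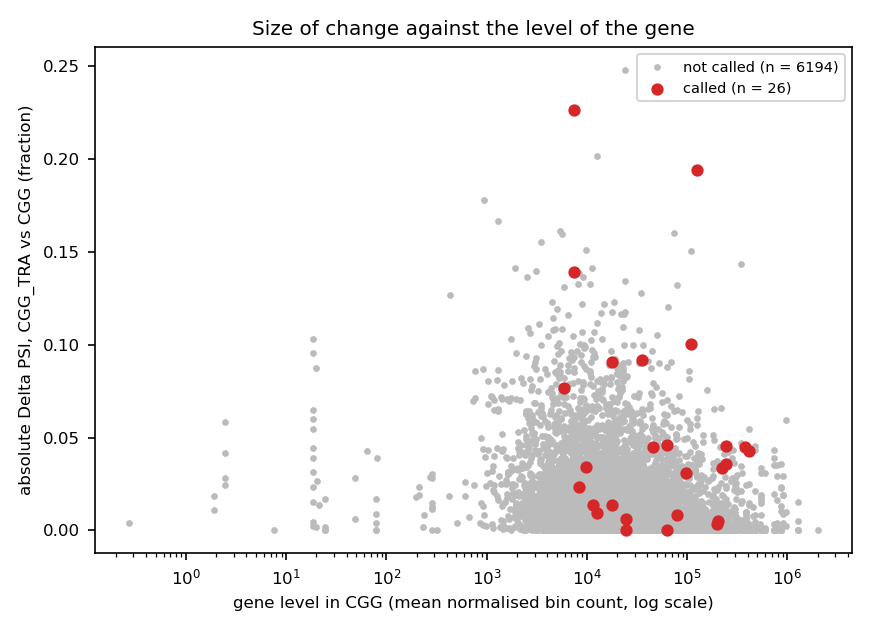
Absolute Delta PSI in CGG_TRA vs CGG (vertical axis, a fraction) against the mean normalised count of the event's gene in the 3 CGG libraries (horizontal log axis), 1 point per event whose gene had a count. Red points are the 26 called events, whose genes had a median of 53846, and most of the events above 0.1 are grey, not called.

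By event type, Delta PSI in CGG_TRA vs CGG was nearly balanced between higher and lower values. Of 1396 cassette exons with a change other than 0 in the authors' deposited table, 650 were higher and 746 lower in CGG_TRA, so that 46.6% were higher. The authors' deposited tables put this share at 36.2% (506 of 1396) in GFP_TRA vs CTL and at 40.3% (563 of 1396) in CGG vs CTL. Lower inclusion was thus the more frequent direction for cassette exons in each of the 3 tables. CGG vs CTL shares libraries with each of the other 2 comparisons, and the difference between the shares was not tested.

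Retained introns had more lower than higher values in each table. Of 122 retained introns with a change other than 0, 56 were higher and 66 lower in CGG_TRA vs CGG in the authors' deposited table, or 45.9% higher. The authors' deposited tables had 36.9% higher in GFP_TRA vs CTL and 33.6% in CGG vs CTL. Of the 1148 complex events with a change other than 0, 54.4% were higher in CGG_TRA vs CGG, 42.6% in GFP_TRA vs CTL and 41.6% in CGG vs CTL in the authors' deposited tables. For alternative 3' sites (345 higher, 339 lower), 5' sites (322 and 353), first exons (384 and 387) and last exons (356 and 357), the authors' deposited table for CGG_TRA vs CGG was close to balance.

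**Figure D2:**
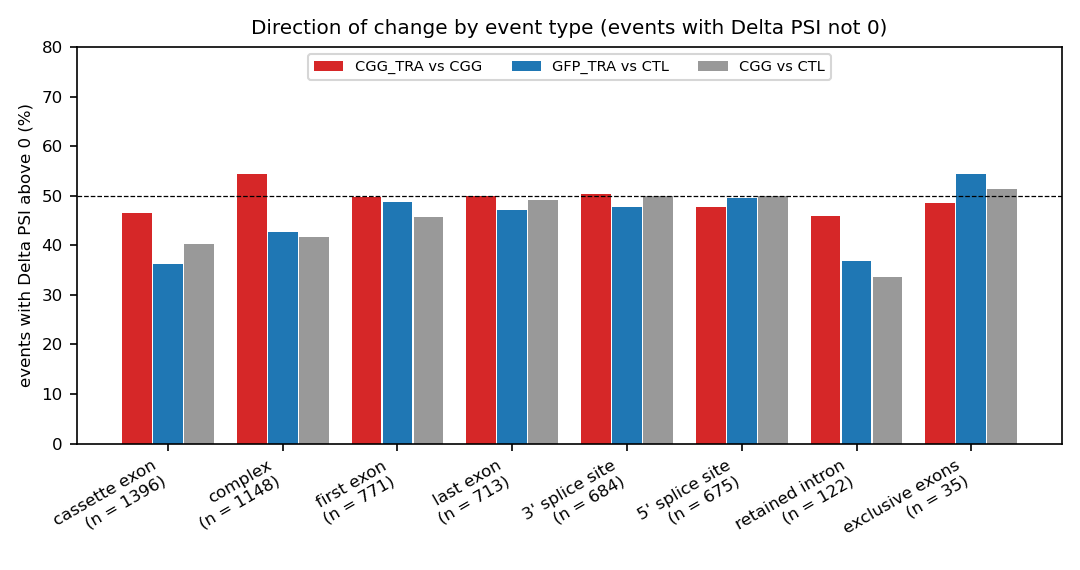
Share of events with a Delta PSI above 0 (vertical axis, percent) for each event type, over events with a Delta PSI other than 0 (n under each type, the same events in each comparison); bars are the 3 deposited comparisons and the dashed line marks 50%. Cassette exons stand at 46.6% in CGG_TRA vs CGG, 36.2% in GFP_TRA vs CTL and 40.3% in CGG vs CTL, and complex events are above the line in CGG_TRA vs CGG only.

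Among events taken by p, higher values outnumbered lower ones. Of the 513 events (8.13%) with an unadjusted p under 0.05 in the authors' deposited table, 344 had a Delta PSI above 0 and 124 one below 0, although all events were balanced (49.7% above 0). The authors' deposited tables gave 228 above and 251 below for GFP_TRA vs CTL, and 198 and 243 for CGG vs CTL. Among cassette exons at this p, the authors' deposited table for CGG_TRA vs CGG had 88 above 0 and 44 below, against 66 and 112 in that for GFP_TRA vs CTL. By size the balance was different: 54 cassette exons were higher by 0.05 or more and 72 lower by as much in the authors' deposited table for CGG_TRA vs CGG, called or not.

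The 26 called events comprised 10 complex events, 5 cassette exons, 3 first exons, 3 last exons, 2 retained introns, 2 alternative 5' sites and 1 alternative 3' site in the authors' deposited table. Per type, the called share ran from 0.129% of 3' sites to 1.55% of the 129 retained introns. None of the 41 pairs of mutually exclusive exons was called, and their smallest unadjusted p was 0.0122 in the authors' deposited table, with 2 under 0.05.

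**Figure D3:**
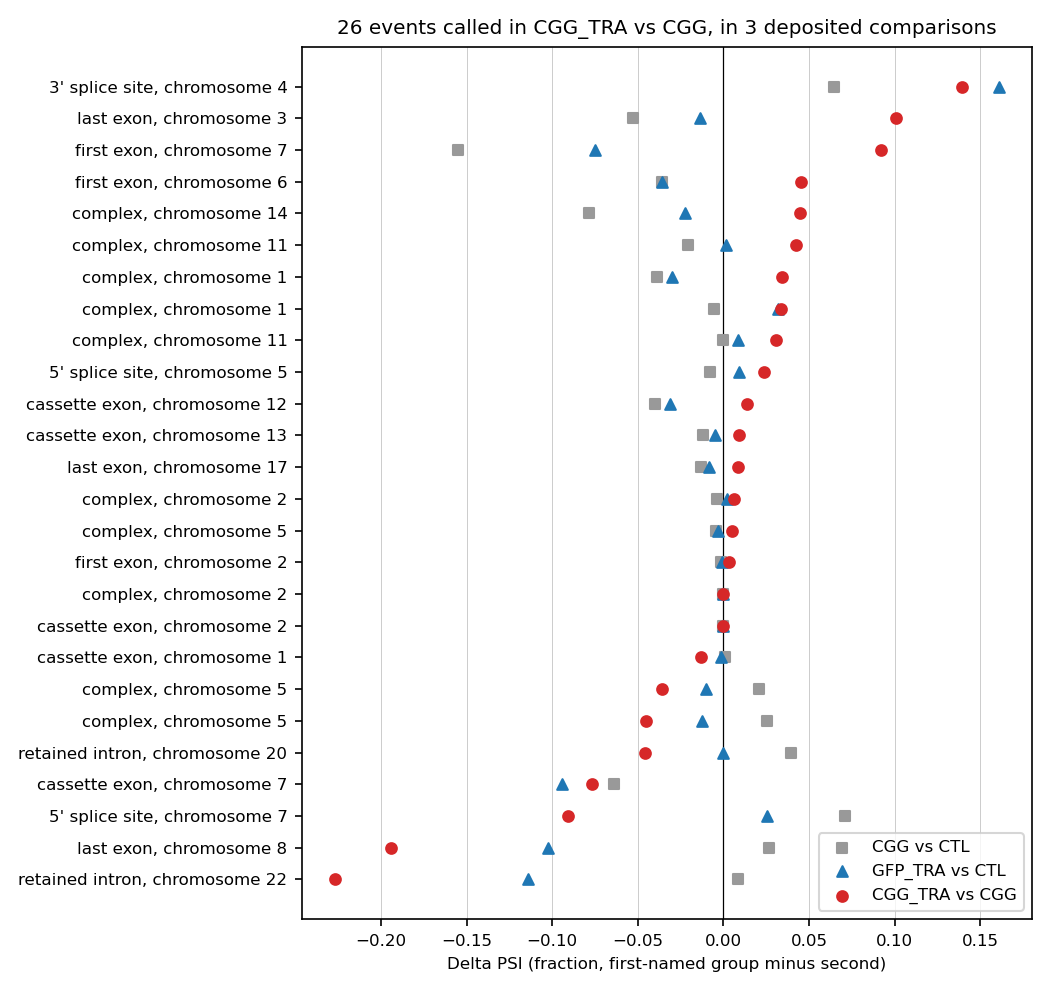
Delta PSI (horizontal axis, a fraction) of the 26 events called in CGG_TRA vs CGG, 1 row per event with its type and chromosome, in the authors' deposited tables of 3 comparisons. The 3' splice site on chromosome 4 lies to the right in every comparison and the cassette exon on chromosome 7 to the left, whereas the first exon on chromosome 7 lies to the right in CGG_TRA vs CGG and to the left in both comparisons with CTL.

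The largest called rise was at an alternative 3' splice site on chromosome 4, 139072003 to 139073454, in gene ENSG00000109381.19. The authors' deposited tables gave a Delta PSI of 0.139 in CGG_TRA vs CGG (adjusted p 0.00263) and 0.161 in GFP_TRA vs CTL (adjusted p 5.01e-05). By these values the longer exon was used more in CGG_TRA than in CGG and more in GFP_TRA than in CTL. In CGG vs CTL the authors' deposited table listed 0.0647, with an adjusted p of 0.369. The ratio of counts in the bins of the alternative stretch, 139072004 to 139072220, to those in its flanking exons was 0.305, 0.288 and 0.303 in CTL, 0.347, 0.331 and 0.321 in CGG, and 0.390, 0.389 and 0.442 in GFP_TRA. All 3 GFP_TRA libraries lay above all CTL and CGG libraries, with means of 0.407 ± 0.0300, 0.298 ± 0.00899 and 0.333 ± 0.0130 (SD, n = 3). The ratio was 0.334, 0.273 and 0.388 in siTRA, which overlapped CTL and CGG, and 0.367, 0.339 and 0.336 in CGG_siTRA. Every CGG and CGG_siTRA library also lay above every CTL library. A ratio above CTL was therefore not particular to raised TRA2A. Relative use of the 36-base bin at 139072004 to 139072039 was 0.34 higher on the log2 scale in GFP_TRA than in CTL, without passing edgeR's diffSpliceDGE test over all bins (unadjusted p 0.0312). The authors' deposited DEXSeq table gave that bin an adjusted p of 0.0251.

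Bin use was tested over 265486 bins, of which 978 (0.368%) were called in GFP_TRA vs CTL and 665 (0.25%) in CGG vs CTL. Ratios of inner to flanking counts carry no test of their own, since 3 libraries against 3 cannot give an exact two-sided permutation p below 0.1.

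A cassette exon on chromosome 7, 100474440 to 100478794, was skipped more in each comparison. The authors' deposited tables gave a Delta PSI of -0.0769 in CGG_TRA vs CGG (adjusted p 0.0337), -0.0942 in GFP_TRA vs CTL (adjusted p 0.0024) and -0.0638 in CGG vs CTL (adjusted p 0.0397). Its 3 inner bins, 1031 bases in all, had ratios to the flanking exons of 3.89, 3.86 and 3.79 in CTL, 3.54, 3.69 and 3.66 in CGG, and 3.54, 3.60 and 3.28 in GFP_TRA. No CGG or GFP_TRA library reached the CTL libraries, while CGG and GFP_TRA overlapped. In siTRA the ratio was 3.44, 2.73 and 3.41, also below CTL, and in CGG_siTRA it was 3.91, 3.58 and 3.55. Relative use of its 805-base bin was not called by edgeR's diffSpliceDGE in GFP_TRA vs CTL (log2 -0.11, unadjusted p 0.298) or in CGG vs CTL (log2 -0.096, unadjusted p 0.367). The authors' deposited DEXSeq tables gave that bin an adjusted p of 0.140 and 0.114. At this locus 2 genes overlap, so the counts may belong to either. The third event called with and without the repeat was a complex event on chromosome 1, 92832117 to 92833545, with 0.0336 in CGG_TRA vs CGG (adjusted p 0.0454) and 0.0319 in GFP_TRA vs CTL (adjusted p 0.000254) in the authors' deposited tables. The authors' deposited table for CGG vs CTL listed it at -0.0058.

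Retained introns gave both the smallest p and the largest called fall. The intron with the smallest p, on chromosome 20, 2656895 to 2657081, is 185 bases long and lies in a stretch where 7 genes overlap, so its counts may belong to more than 1 gene. In the authors' deposited table its retention was 0.046 lower in CGG_TRA than in CGG, a Delta PSI of -0.046 (p 9.43e-08, adjusted p 0.000595). The authors' deposited tables listed it at 0.0396 in CGG vs CTL (adjusted p 0.177) and at -0.000365 in GFP_TRA vs CTL (adjusted p 1). The ratio of intron bins to flanking exon bins was 0.145, 0.125 and 0.145 in CTL and 0.215, 0.255 and 0.263 in CGG, so that every CGG library was above every CTL library. In GFP_TRA it was 0.155, 0.116 and 0.152, which overlaps CTL. Means were 0.138 ± 0.0115 in CTL, 0.244 ± 0.0260 in CGG and 0.141 ± 0.0215 in GFP_TRA (SD, n = 3). The last 70 bases, 2657011 to 2657080, were used 0.91 more on the log2 scale in CGG than in CTL by edgeR's diffSpliceDGE (adjusted p 6.45e-07). In GFP_TRA vs CTL the same bin was 0.25 higher on the log2 scale and was not called (unadjusted p 0.0723). The ratio was also above every CTL library in both knockdown groups, at 0.334, 0.280 and 0.316 in siTRA, which has no repeat, and at 0.238, 0.312 and 0.202 in CGG_siTRA. A ratio above CTL was therefore not particular to the cells with the repeat. CGG vs CTL and CGG_TRA vs CGG use the same CGG samples.

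The largest called fall was an intron of 26 bases on chromosome 22, 28796121 to 28796148, in gene ENSG00000100219.16. It is shorter than the introns that the spliceosome usually removes, and whether the spliceosome removes it was not tested. The authors' deposited tables gave it a Delta PSI of -0.227 in CGG_TRA vs CGG (adjusted p 0.0337), -0.114 in GFP_TRA vs CTL (adjusted p 0.866) and 0.00863 in CGG vs CTL (adjusted p 1). The ratio of its bins to the flanking exon was 1.17, 1.13 and 1.09 in CTL, 1.17, 1.06 and 1.05 in CGG, and 0.954, 1.02 and 0.862 in GFP_TRA. All GFP_TRA libraries lay below all CTL and CGG libraries, at 0.946 ± 0.0801 against 1.13 ± 0.0439 and 1.09 ± 0.0643 (SD, n = 3). CGG_siTRA was below CTL too, at 0.918, 0.858 and 0.859, and siTRA, at 1.15, 1.07 and 1.25, overlapped CTL. The gene had normalised counts of 4910 ± 210 in CTL, 7377 ± 203 in CGG and 5925 ± 89.0 in GFP_TRA (SD, n = 3), so the repeat group had the highest counts. Relative use of the intron's 24-base bin did not pass in GFP_TRA vs CTL (log2 -0.25, unadjusted p 0.159, edgeR's diffSpliceDGE).

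First exons were called at 3 genes, each with a Delta PSI above 0 in CGG_TRA vs CGG. At chromosome 7, 134779661 to 134928754, the authors' deposited tables gave 0.0917 in CGG_TRA vs CGG (adjusted p 0.00236), -0.075 in GFP_TRA vs CTL (adjusted p 1) and -0.155 in CGG vs CTL (adjusted p 0.0038). The called changes thus had opposite signs in CGG vs CTL and in CGG_TRA vs CGG, in tables that share the CGG libraries. Bins chosen within the event after their values were seen are given as a description. Which path they belong to is not known. A bin at 134867693 to 134867804 had normalised counts of 1388, 1446 and 1471 in CTL, 779, 716 and 769 in CGG, and 911, 938 and 923 in GFP_TRA. A bin farther downstream, 134891458 to 134891609, had 253, 217 and 197 in CTL, 274, 301 and 292 in CGG, and 242, 226 and 246 in GFP_TRA. The first bin was thus lower in every CGG and GFP_TRA library than in any CTL library, while the second was highest in CGG. A bin near the upstream end, from 134779715, had means of 834 in CTL, 426 in CGG and 509 in GFP_TRA. One at the downstream end, from 134928754, had 1794, 1187 and 1288. Relative use of the latter hardly differed from CTL, at log2 -0.016 in CGG and -0.0086 in GFP_TRA. The whole gene had lower counts as well, at 52836 ± 2303 in CTL, 35359 ± 1116 in CGG and 38161 ± 1046 in GFP_TRA (SD, n = 3). Relative use of the first bin was not called by edgeR's diffSpliceDGE in CGG vs CTL (log2 -0.35, adjusted p 0.339) or in GFP_TRA vs CTL (log2 -0.17, unadjusted p 0.144). Its adjusted p in CGG vs CTL was 0.00183 with only both groups in the edgeR fit and 2e-15 in the authors' deposited DEXSeq table, which gave 0.00478 for GFP_TRA vs CTL.

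The first bin held 84.6%, 87.0% and 88.2% of the sum of both in CTL, 74.0%, 70.4% and 72.5% in CGG, and 79.0%, 80.6% and 79.0% in GFP_TRA. These 3 groups did not overlap, with CTL highest and CGG lowest. Since both bins were picked on their values, this is a description and no test. In siTRA, without the repeat, the share was 76.8%, 80.1% and 73.0%, which overlapped CGG and GFP_TRA, and in CGG_siTRA it was 75.7%, 66.6% and 69.7%. All 4 treated groups with counts were thus below every CTL library. Relative use of the downstream bin was 0.96 higher on the log2 scale in CGG than in CTL (adjusted p 1.92e-06, edgeR's diffSpliceDGE). In GFP_TRA vs CTL it was 0.57 higher with an adjusted p of 0.0505 by edgeR's diffSpliceDGE. That p was 0.0370 without CTL library a, 0.00166 with only both groups in the edgeR fit, and 0.00406 in the authors' deposited DEXSeq table. It missed the threshold in the other edgeR fits, with 0.386 and 0.788 without CTL library b or c, 0.332, 0.297 and 0.122 without GFP_TRA library a, b or c, 0.079 without the filter and 0.0503 with the authors' scaling. The other called first exons were on chromosome 6, 33272090 to 33275797, and chromosome 2, 55232699 to 55234831, with 0.045 and 0.00319 in CGG_TRA vs CGG in the authors' deposited table (adjusted p 0.0405 and 0.00236). In GFP_TRA vs CTL the authors' deposited table listed them at -0.0357 and -0.000861, and in CGG vs CTL at -0.036 and -0.00133, with an adjusted p of 1 in each.

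**Figure D4:**
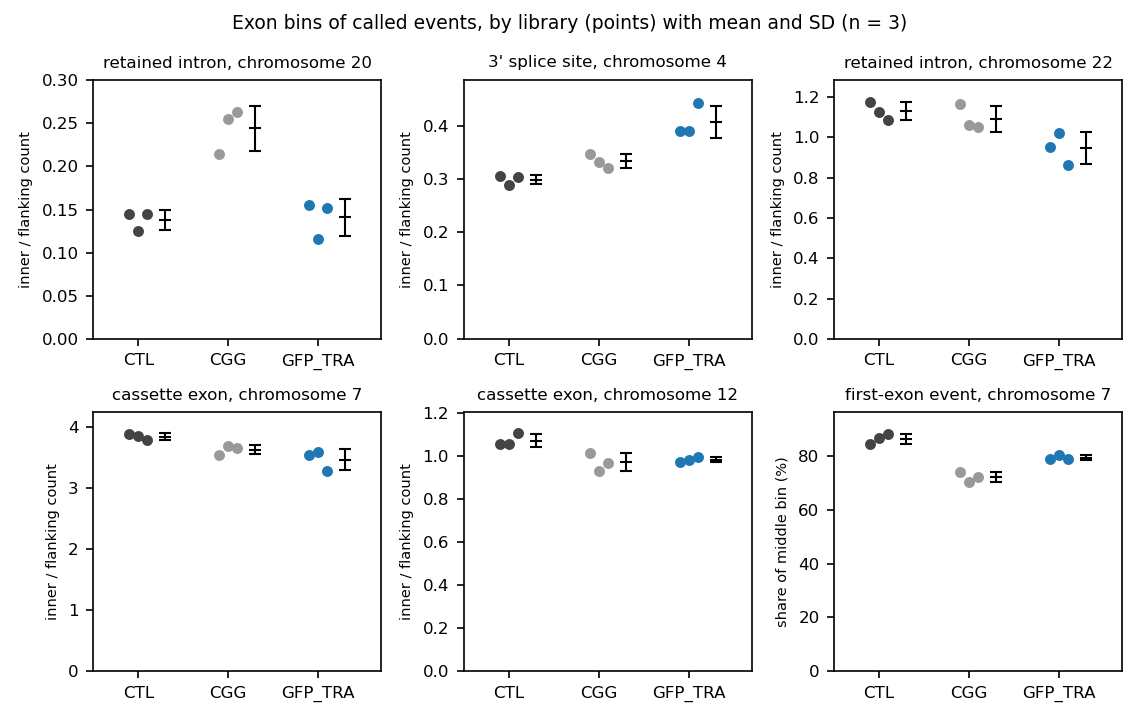
Exon bin counts at 6 events called in CGG_TRA vs CGG, by library (points; n = 3 per group) with the mean and SD beside them, for CTL, CGG and GFP_TRA. The vertical axes start at 0 and show the ratio of inner to flanking bin counts, or, in the last panel, the percent that the bin at the middle of the first-exon event holds of the sum of both bins; the chromosome 20 intron is highest in CGG (0.244) and the chromosome 4 site highest in GFP_TRA (0.407).

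Last exons were called at 3 genes. At chromosome 3, 12840242 to 12841542, the authors' deposited tables gave 0.101 in CGG_TRA vs CGG (adjusted p 0.00679), -0.0137 in GFP_TRA vs CTL (adjusted p 1) and -0.0525 in CGG vs CTL (adjusted p 0.968). At chromosome 8, 98045399 to 98276280, in gene ENSG00000156482.10, Delta PSI was -0.194 in CGG_TRA vs CGG (adjusted p 0.0405), -0.102 in GFP_TRA vs CTL (adjusted p 1) and 0.0268 in CGG vs CTL (adjusted p 1) in the authors' deposited tables. That interval runs 229811 bases past the last counted bin of the gene it is assigned to, so it spans sequence outside that gene's bins. At chromosome 17, 75181188 to 75182935, the change in the authors' deposited table was 0.00836 (adjusted p 0.0337), against -0.00872 in GFP_TRA vs CTL and -0.0128 in CGG vs CTL (adjusted p 0.000646).

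Alternative 5' splice sites were called in opposite directions. At chromosome 7, 102195603 to 102196940, the authors' deposited tables listed -0.0908 in CGG_TRA vs CGG (adjusted p 0.0171), 0.0255 in GFP_TRA vs CTL and 0.071 in CGG vs CTL, the last 2 with an adjusted p of 1. The 306-base alternative stretch had a ratio to its flanking exons of 0.588, 0.486 and 0.527 in CTL, 0.595, 0.467 and 0.482 in CGG, and 0.482, 0.459 and 0.480 in GFP_TRA. CTL and CGG overlapped, so the counts did not show the higher value that the table lists for CGG. All 3 GFP_TRA libraries lay below CTL, the direction opposite to the 0.0255 of the authors' deposited table. At chromosome 5, 175492267 to 175509061, Delta PSI was 0.0236 in CGG_TRA vs CGG (adjusted p 0.0392) and -0.0079 in CGG vs CTL in the authors' deposited tables. Its ratio was 0.682 ± 0.0129 in CTL and 0.641 ± 0.0139 in CGG (SD, n = 3), without overlap between the libraries. It was 0.662, 0.739 and 0.633 in siTRA, which overlapped both.

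Besides the chromosome 7 exon, 4 cassette exons were called, each with a small change. At chromosome 12, 6975148 to 6975696, the authors' deposited tables gave 0.0134 in CGG_TRA vs CGG (adjusted p 0.0405), -0.0314 in GFP_TRA vs CTL (adjusted p 1) and -0.04 in CGG vs CTL (adjusted p 0.00846). The ratio of its inner bins to the flanking exons was 1.05, 1.06 and 1.10 in CTL, 1.01, 0.930 and 0.970 in CGG, and 0.971, 0.982 and 0.993 in GFP_TRA, so both groups were below every CTL library. The knockdown groups were below CTL too, at 0.958 to 1.01 in siTRA and 1.05, 1.01 and 0.994 in CGG_siTRA, where the first library was close to the lowest of CTL. The exons on chromosome 13, 37006025 to 37006975, and chromosome 1, 185308875 to 185309383, changed by 0.0091 and -0.0134 in CGG_TRA vs CGG in the authors' deposited table (adjusted p 0.0038 and 0.0404). Their ratios overlapped between CTL, CGG and GFP_TRA. The exon on chromosome 2, 206149925 to 206153618, was called with a Delta PSI listed at 0 in the authors' deposited table (adjusted p 0.0337), and its ratio was 1.06 ± 0.0112 in CTL, 1.06 ± 0.0105 in CGG and 1.05 ± 0.0188 in GFP_TRA (SD, n = 3).

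The 10 complex events lay in 8 genes. At chromosome 14, 22927614 to 22928497, the authors' deposited tables listed 0.0449 in CGG_TRA vs CGG (adjusted p 0.00275), -0.0228 in GFP_TRA vs CTL (adjusted p 0.241) and -0.0784 in CGG vs CTL (adjusted p 9.94e-10). The calls in CGG vs CTL and in CGG_TRA vs CGG thus had opposite signs, again with CGG samples in common. On chromosome 5, 179616218 to 179617051, a pair of events of 1 gene fell, with a Delta PSI of -0.0357 and -0.0453 in CGG_TRA vs CGG in the authors' deposited table (adjusted p 0.0405 for each). Higher values of 0.0426, 0.0342 and 0.0307 were listed on chromosome 11, 18399548 to 18403738, chromosome 1, 63454968 to 63508528, and chromosome 11, 64194330 to 64203489, in the authors' deposited table (adjusted p 0.0378, 0.0461 and 0.0337). The other called complex events, on chromosome 5 from 10250445 and on chromosome 2 from 27771799, changed by 0.0051 and 0.00633, and a further one on chromosome 2 was listed at 0 in the authors' deposited table.

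Called events were compared between raised TRA2A with the repeat and without it. CGG_TRA vs CGG and GFP_TRA vs CTL share no library, and 3 events were called in both authors' deposited tables, which is 11.5% of the 26 and 3.90% of the 77. Over all events, 1.22% were called in GFP_TRA vs CTL and 0.412% in CGG_TRA vs CGG. Those 3 had the same sign in both. Of the 24 called events with a change other than 0, 13 had the same sign in the authors' deposited table for GFP_TRA vs CTL and 11 the opposite sign, a share of 54.2%. Over all 5544 events with a change in both, the share was 53.2% (2949 same, 2595 opposite) in the authors' deposited tables, close to that of the called events. Pearson's r was 0.0718 and Spearman's rho 0.0946 across these 5544 events of the authors' deposited tables, which are not independent replicates. Over the 24 called events r was 0.611 and rho 0.170. Over the 70 events with a change in both and an unadjusted p under 0.05 in both, r was 0.0403 and rho 0.346. Of those 70, 42 had the same sign and 28 the opposite sign.

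**Figure D5:**
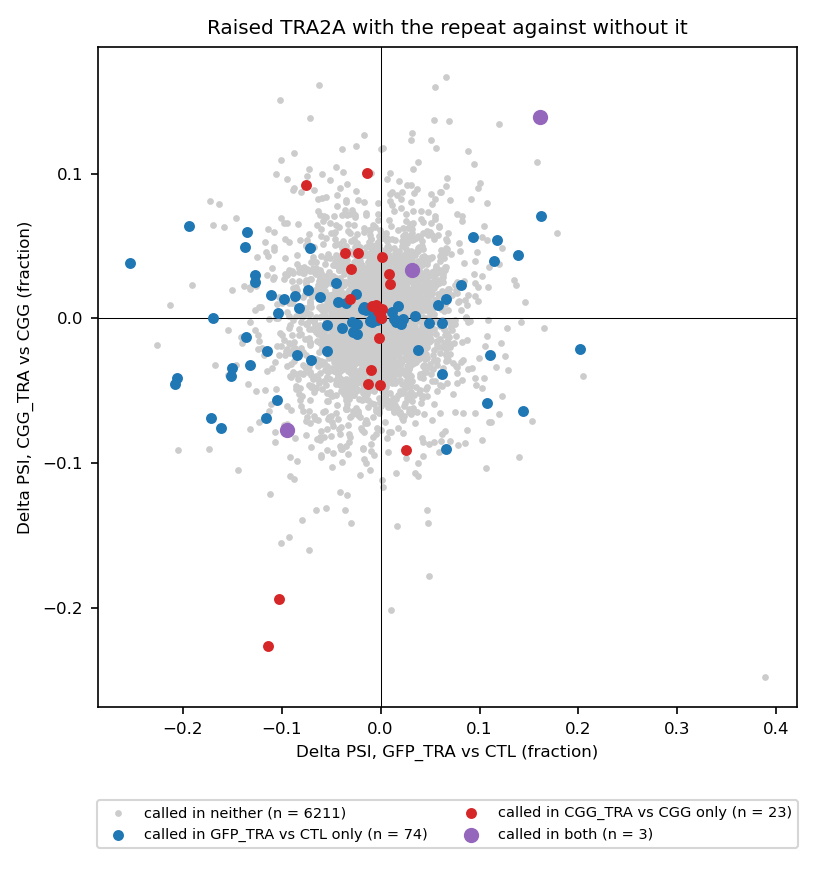
Delta PSI of 6311 events in CGG_TRA vs CGG (vertical axis, a fraction) against GFP_TRA vs CTL (horizontal axis, a fraction), 1 point per event, coloured by the comparison in which it was called. The cloud has no clear slope (Spearman's rho 0.0946 over the 5544 events with a change in both), and the 3 events called in both lie where both changes have the same sign.

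Events called for TRA2A without the repeat were on both sides of 0 with it. Of the 77 events called in GFP_TRA vs CTL, 39 had the same sign in the authors' deposited table for CGG_TRA vs CGG and 37 the opposite sign. Of these 77, 17 (22.1%, against 8.13% of all events) had an unadjusted p under 0.05 in CGG_TRA vs CGG, 8 of them with the same sign and 9 with the opposite sign in the authors' deposited tables. The event with the smallest p in GFP_TRA vs CTL was a cassette exon on chromosome 10, 26770345 to 26777065, with a Delta PSI of -0.254 there (adjusted p 3.72e-10) in the authors' deposited table. It was at -0.248 in CGG vs CTL (adjusted p 6.93e-12) and at 0.0382 in CGG_TRA vs CGG (unadjusted p 0.00961, adjusted p 0.326) in the authors' deposited tables. The exon was skipped more in GFP_TRA and in CGG than in untreated CTL, and its value in CGG_TRA vs CGG was above 0 and not called. Neither comparison with CTL separates TRA2A or the repeat from transfection itself. GFP_TRA vs CTL and CGG vs CTL share the CTL libraries, and CGG vs CTL and CGG_TRA vs CGG share the CGG libraries. Values of an event in these tables are therefore not independent.

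A cassette exon on chromosome 2, 86151520 to 86158592, gave -0.127 in GFP_TRA vs CTL (adjusted p 8.87e-08), -0.13 in CGG vs CTL (adjusted p 2.17e-07) and 0.0248 in CGG_TRA vs CGG (adjusted p 1) in the authors' deposited tables. A first exon on chromosome 7, 27142085 to 27152288, followed the same pattern, with -0.194, -0.189 and 0.0636 in the authors' deposited tables (adjusted p 1.47e-05, 3.66e-07 and 0.516). Other events kept their sign. A cassette exon on chromosome 1, 85258722 to 85259358, was at -0.162 in GFP_TRA vs CTL (adjusted p 3.98e-05), -0.0879 in CGG vs CTL (adjusted p 0.0578) and -0.0755 in CGG_TRA vs CGG (adjusted p 0.425) in the authors' deposited tables. On chromosome 2, 112482501 to 112494143, a cassette exon was at 0.117 in GFP_TRA vs CTL (adjusted p 1.32e-05), 0.0396 in CGG vs CTL (adjusted p 1) and 0.0541 in CGG_TRA vs CGG (adjusted p 0.19) in the authors' deposited tables.

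Large changes, called or not, were as often up as down. Of the 62 events with an absolute Delta PSI of 0.1 or more in CGG_TRA vs CGG in the authors' deposited table, 31 were above 0 and 31 below, in 60 genes. The 16 of smallest p after the 4 called ones had 8 values above and 8 below 0, with adjusted p from 0.0697 to 0.359 in the authors' deposited table. The lowest Delta PSI of all, -0.248, was a complex event on chromosome 7, 44830163 to 44835643 (adjusted p 0.345 in the authors' deposited table). The authors' deposited tables listed that event at 0.389 in GFP_TRA vs CTL (adjusted p 0.604) and 0.51 in CGG vs CTL. The highest, 0.167, was a cassette exon on chromosome 11, 64300987 to 64303773 (adjusted p 0.231 in the authors' deposited table), listed at 0.0658 in GFP_TRA vs CTL and -0.0337 in CGG vs CTL.

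Among the other cassette exons of this size, those on chromosome 9, 35662741 to 35663322, and chromosome 6, 112076509 to 112081092, were at -0.142 and -0.14 in CGG_TRA vs CGG in the authors' deposited table (adjusted p 0.161 and 0.169). The second of them was at -0.0796 in GFP_TRA vs CTL in the authors' deposited table (unadjusted p 0.0454). A retained intron on chromosome 3, 49720894 to 49721020, was at 0.116 in CGG_TRA vs CGG and at 0.0883 in GFP_TRA vs CTL in the authors' deposited tables, with adjusted p of 0.168 and 0.604. Its bin held very few reads, with raw counts of 3, 5 and 6 in CTL, 4, 1 and 3 in CGG, and 5, 7 and 1 in GFP_TRA. That bin was below the filter of the bin test, and its ratio to the flanking exons overlapped between CTL and GFP_TRA. A last exon on chromosome 14, 75988977 to 76083740, was nearest to the threshold, at -0.107 with an adjusted p of 0.0697 in the authors' deposited table, against 0.115 in CGG vs CTL.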

How the data were processed

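Qiagen extraction with DNase and TruSeq total RNA preparation with removal of rRNA gave the libraries, per the labels' protocols. The submitters' processing notes name cutadapt 1.14, STAR 2.5.2 and the human build GRCh38.p10. The cells are of monkey origin, and reads of diverged sequence can be lost against a human build. Those notes list DESeq2 without a role. The splicing caller and its settings are not given in the sources used here beyond the table names (EventPointer, DEXSeq).

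Per the file headers, each event of the deposited EventPointer tables has the authors' Delta PSI, z score and p-value. The z score had the sign opposite to Delta PSI in 24 of 24 called events with a change other than 0. Over all events of CGG_TRA vs CGG, with 2755 above 0 and 2789 below, 4800 had opposite signs. The direction of z and of Delta PSI thus did not always match among events that were not called. The DEXSeq tables deposited by the authors hold raw counts per exon bin, p-values and log2 fold changes. A further table deposited by the authors holds normalised values, a signal scaled by 1 factor per library, and whole reads were recovered from 100.0% of its values (within 0.1 of a read), with which 1623 cells were filled. The 15 libraries are lettered within groups, since count columns are not tied to the replicate numbers of the labels.

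Event p-values were adjusted by the Benjamini-Hochberg method with scipy 1.17.1 over 6311 events, and 767 events are listed at 0 in every table. Bin use was tested with edgeR 4.0.16 (R 4.3.3; TMM, glmQLFit, diffSpliceDGE) on bins that reached a normalised count of 10 in 3 libraries or more, in 1 fit of all 15 libraries, and checked on simulated data. For ratios, normalised counts of bins inside an event were divided by those of its flanking exon bins. A read that spans several bins counts in each. Of 3403 event genes, 0 matched a name in the monkey RefSeq table, so 10 gene lists and the cell type markers could not be applied. Named events are those called with a Delta PSI of 0.1 or more, filled to 20 genes with the uncalled events of smallest p at that size, those called with and without the repeat, and the smallest p of each type. All other called events are also given, as are top events of GFP_TRA vs CTL, chosen after their values were seen. The events and lists were chosen with earlier results of these data known. Alternatives changed the thresholds, adjustment, scaling, filter, tool and libraries.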

Additional observations from a re-analysis of the deposited data

How the results depend on the processing

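Counts of events and bins moved with the threshold and the fit. For CGG_TRA vs CGG, the authors' deposited p gave 7 events at an adjusted p under 0.01, 47 under 0.1, 54 at an unadjusted p under 0.001, 513 under 0.05, and 4 with a change of 0.1 or more, against 26. With 1 event per gene there were 36, a setting that keeps the smallest p of each gene and so lowers adjusted p by construction, and with adjustment within each type 31. GFP_TRA vs CTL gave 51, 516 and 29 events at an adjusted p under 0.01, an unadjusted p under 0.05 and a change of 0.1 or more, against 77, and CGG vs CTL gave 53, 485 and 33, besides 129 at an adjusted p under 0.1, against 84. The share with the same sign in GFP_TRA vs CTL was 28.6% (2 of 7) for events at an adjusted p under 0.01 and 75.0% (3 of 4) for those changed by 0.1 or more, against 54.2%. Bins called in GFP_TRA vs CTL numbered 2130 with only both groups in the edgeR fit, 4060 in the authors' deposited DEXSeq table, and 259 to 1551 when a library was left out (259 without GFP_TRA library b, 1551 without GFP_TRA library c), against 978. The split of these bins into higher and lower was 491 and 487 in the fit of all libraries, 99 and 160 without GFP_TRA library b, 1184 and 367 without GFP_TRA library c, and 1431 and 2628 in the authors' deposited DEXSeq table. In CGG vs CTL they numbered 3230, 5790 and 247 to 474 (247 without CTL library c), against 665. Among bins of the events given here, only those of the chromosome 20 intron and the downstream chromosome 7 bin were called, both in CGG vs CTL. Neither changed sign in the alternatives run. Some bins that were not called did. In GFP_TRA vs CTL the bin of the chromosome 13 exon went from log2 0.0488 to -0.0120 without CTL library b. An event kept its deposited Delta PSI in every alternative, so its sign could not change. The causes of the moves in the counts were not tested.

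Inner-to-flanking ratios of called events were also recomputed without each library, an alternative chosen after seeing the data. This was run only where the libraries of a group did not overlap those of CTL. There the sign of the difference cannot change when a library is left out, so no conclusion is drawn from it. No paired analysis was possible because the count columns carry no replicate numbers of the labels. For CGG_TRA, known here from a pooled table, leaving out a library was not run, and the depth per event is unknown.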

Other observations

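CGG_TRA was also set against cells with the repeat and TRA2A knocked down (CGG_siTRA), in a table that shares the CGG_TRA samples with the comparison above. Of 122 retained introns with a change other than 0, the authors' deposited table for CGG_TRA vs CGG_siTRA had 18 above 0 and 104 below, so that 14.8% were higher. The chromosome 20 intron at 2656895 to 2657081 was at -0.0495 in it (adjusted p 0.0313), and the first exon on chromosome 7 at 134779661 to 134928754 was at 0.126 (adjusted p 0.000178) in the authors' deposited table.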
